A study of Rattus norvegicus with 12 samples.

Results

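Combined knockdown of Yap and Wwtr1 was compared with negative siRNA in cultured rat cardiac fibroblasts by RNA sequencing. Genes averaging 10 normalized counts or more over the 12 libraries of the study entered the comparison, which gave 11871 of the 12271 genes listed, and 6 of the 12 libraries carried the contrast. Yap (gene Yap1) and Wwtr1 (also called Taz) are transcriptional coactivators without a DNA-binding domain of their own. They enter the nucleus when the Hippo kinase cascade is inactive, bind TEAD transcription factors and switch on genes of growth, adhesion and matrix signaling. In the injured heart they are known for their part in the change of resident fibroblasts into contractile, matrix-producing myofibroblasts.

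The cells were taken from ventricles of Sprague Dawley rats on postnatal day 2, pooled within litters, and grown in medium with 15% serum per the labels. Double knockdown cells received siRNAs against Yap and against Wwtr1, and negative siRNA cells received a pair of universal control siRNAs. The siRNA concentration is given as 25 nM. RNA was collected 48 hours after transfection per the labels. The study's methods differ, with less serum in a medium change a day after transfection and collection 48 hours after that change. The other 6 libraries, from cells given Yap siRNA or Wwtr1 siRNA alone, entered the fit only through the shared estimate of spread. For double knockdown samples the siRNA field lists siRNAs against Wwtr1 alone, and the design text of the series speaks of myocytes where the title and sample labels speak of fibroblasts. Litters separate the replicates per the study, so the errors below are those of 3 cultures a group.

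A value is a normalized count, the read count of a gene divided by a size factor for its library, and the 3 values of a group are given in the order of replicates 1, 2 and 3. Fold changes are differences of log2(normalized count + 1), double knockdown minus negative siRNA, with standard errors (SE). A gene passed the test at a Benjamini-Hochberg adjusted p under 0.05 from limma, two-sided, over all genes tested. The recovered read totals of the 6 libraries ran from 34.4 to 41.1 M. Of the genes tested, 32.8% passed, 17.1% higher and 15.6% lower, and the median log2 fold change over all of them was 0.0035. The 3 libraries of one group did not overlap those of the other in 44.6% of all genes tested. The fibroblast identity of the cultures was checked on its markers. Col1a2 (collagen type I) was 810290.0, 778477 and 769292 with negative siRNA and 523769.6, 566171 and 675761 in the double knockdown, and the fibroblast transcription factor Tcf21 was 8297, 7638 and 6484 with negative siRNA and 5243, 5609.9 and 5772 in the double knockdown. Of 14 fibroblast markers 5 rose and 3 fell, 8 calls that became 5 without double knockdown replicate 1 or without any 1 of the negative siRNA libraries. Cardiomyocyte RNA was present as well, with the alpha myosin heavy chain gene Myh6 at 9496, 9986 and 4616 with negative siRNA.

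The depleted genes were read library by library, because double knockdown replicate 3 stood apart. Yap1 was 3042, 3776 and 2984 with negative siRNA and 713, 739 and 1474 in the double knockdown. Wwtr1 was 2364, 2565 and 2280.0 with negative siRNA and 818, 731 and 1056 in the double knockdown. In replicate 3 both transcripts remained more abundant than in replicates 1 and 2, although each stayed below every negative siRNA library. Without replicate 3 the log2 fold change of Yap1 went from -1.82 to -2.16 and that of Wwtr1 from -1.48 to -1.63. Replicate 3 also differed in macrophage marker RNA, and in bulk samples fewer cells of a type and less RNA per cell cannot be told apart. The 24 tested macrophage markers summed to 11546, 22008 and 75136 normalized counts in the double knockdown and 50197, 39070.4 and 34821 with negative siRNA, so that the double knockdown libraries lay on both sides of the controls. Between replicates, the chi-square per gene was 29.5 for double knockdown libraries 1 and 2, but 123 and 128 for library 3 against libraries 1 and 2, and at most 42.4 within negative siRNA. Results below are therefore set against replicate 3, by its own value or by the value without it.

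**Figure D1:**
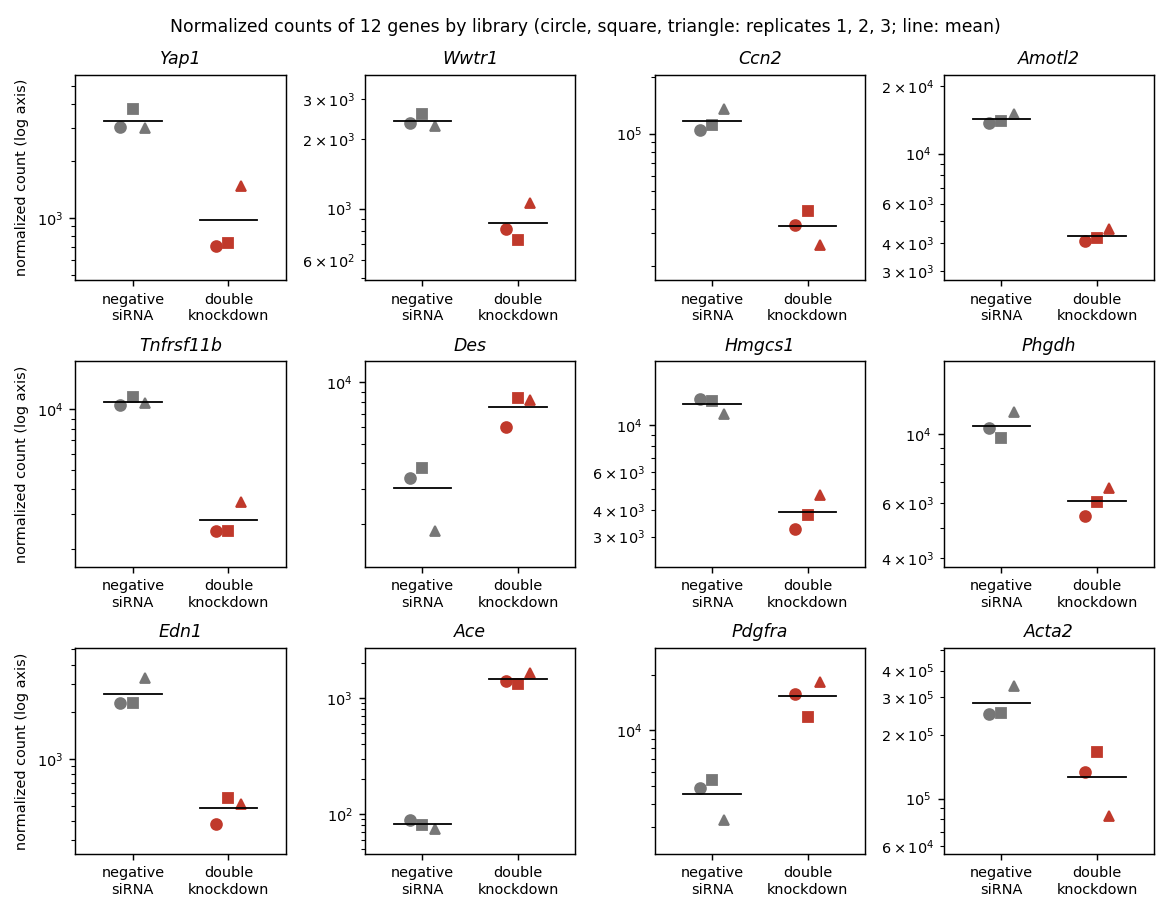
Normalized counts (log axes, a scale of its own in each panel) of 12 genes in the 3 negative siRNA libraries (grey) and the 3 double knockdown libraries (red), with replicates 1, 2 and 3 as circle, square and triangle and a line at the group mean. The groups are apart in all 12 panels, and Yap1 in double knockdown replicate 3 (1474) lies between the other double knockdown libraries and the controls.

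With combined knockdown a large part of the transcriptome changed outside a list of interferon-induced genes. The list of genes and families, 149 of them tested, was set aside: 127 were higher and 3 lower in the double knockdown. It was drawn up by names, so genes that respond to interferon but are missing from it remain among those below. Their number was not tested. Among the remaining 11722 genes, 3758 passed (32.1%), 1908 higher (16.3%) and 1850 lower (15.8%). The median log2 fold change was 0.67 among those that rose and -0.49 among those that fell. With replicate 3 as the lone double knockdown library, 1837 of the 3758 passed. Without replicate 3 the number that passed was 3925 (33.5%), and 3238 of the 3758 were among them. Replicate 3 was the double knockdown library nearest to the controls in 1668 of the 3758 genes (44.4%). Changes over 4-fold outside the interferon list numbered 230 (1.96% of the genes), of which 196 were rises and 34 were falls. Of these 230 genes, 130 had a mean under 100 normalized counts over the 12 libraries.

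Abundant genes that passed mostly fell. Outside the interferon list, 213 genes had a mean of at least 20000 normalized counts over the 6 libraries, and 123 of them fell while 19 rose. Their median log2 fold change was -0.36, and -0.35 without replicate 3. Between 5000 and 20000 normalized counts, 359 fell and 191 rose of 1118. Among genes with a mean of 10 to 100, by contrast, 208 rose and 62 fell of 1659. With TMM scaling the most abundant class held 127 falls and 19 rises, and with upper-quartile scaling 130 and 18.

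**Figure D2:**
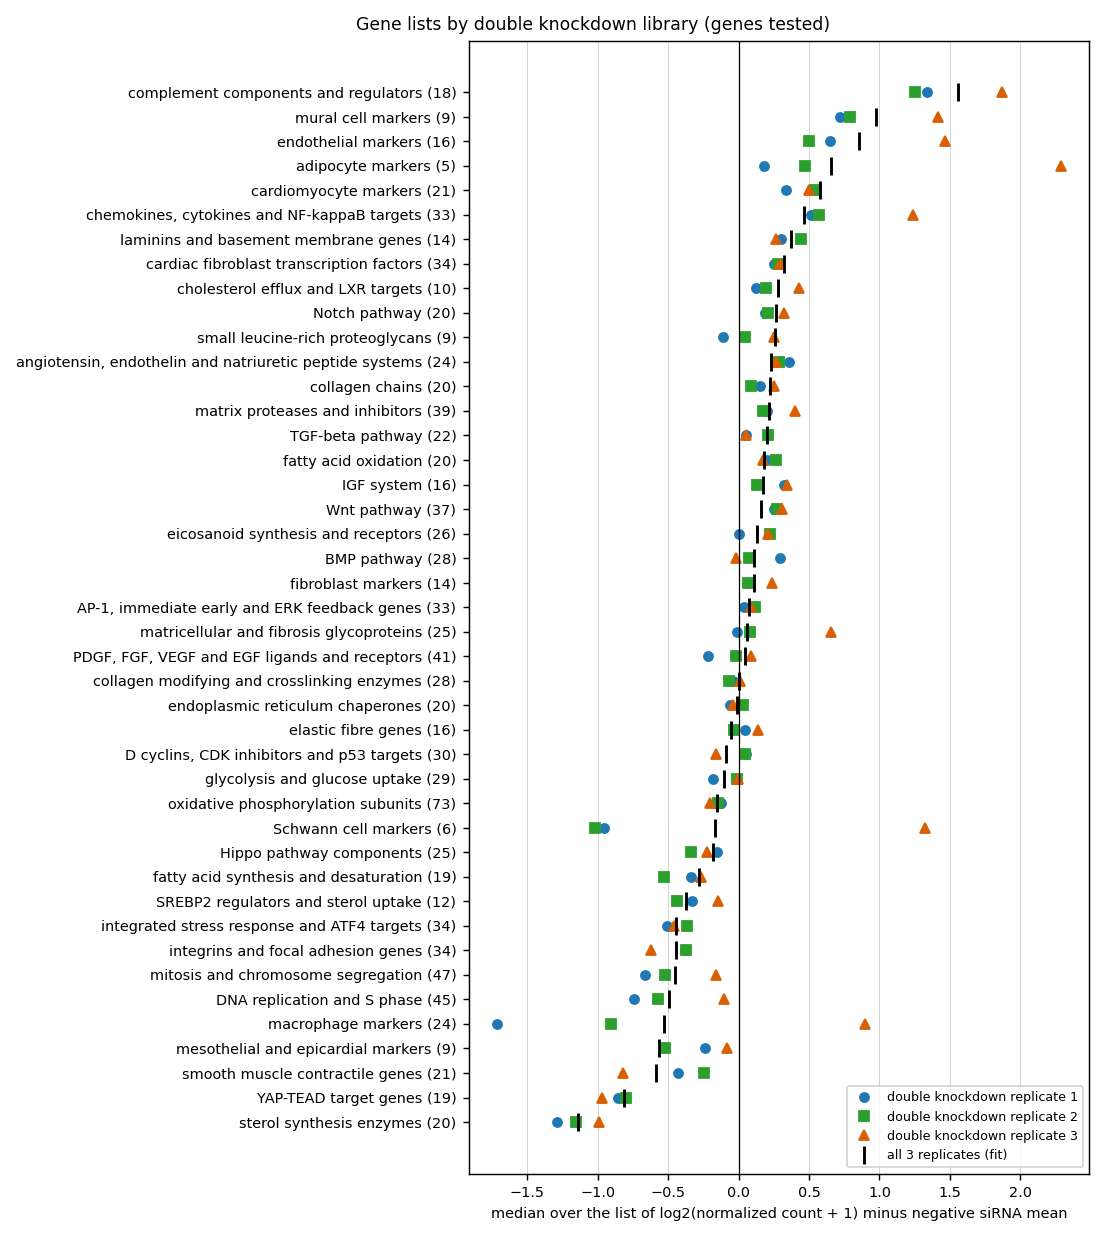
Median log2 difference from the negative siRNA mean over each of 43 gene lists (rows, with the number of genes tested) in double knockdown replicates 1, 2 and 3 (circle, square, triangle), with a bar at the median of the fitted log2 fold changes. Sterol synthesis enzymes (-1.29, -1.15 and -0.99) and YAP-TEAD targets (-0.85, -0.80 and -0.97) lie low in all 3 libraries, whereas macrophage markers run from -1.71 to 0.90.

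Targets of the YAP-TEAD complex were the first group examined. Of 19 tested genes, 11 fell and 2 rose. The median was -0.81, with -0.85, -0.80 and -0.97 in double knockdown replicates 1, 2 and 3. Ccn2, which encodes connective tissue growth factor, was 104083, 111609 and 134840.2 with negative siRNA and 33133, 39349 and 25769 in the double knockdown (log2 fold change -1.85, SE 0.19, limma adjusted p 3.93e-05). Replicate 3, with the most Yap1 left, had the lowest Ccn2. Amotl2, an angiomotin family member that binds Yap and holds it in the cytoplasm, was 13706, 13894 and 15015 with negative siRNA and 4105, 4235 and 4625 in the double knockdown (log2 fold change -1.72, SE 0.11, limma adjusted p 4.55e-06). Its 3 double knockdown values lay close together. Ccn1 (Cyr61) fell by 1.63 and Ankrd1, a muscle ankyrin repeat protein, fell by 1.64 on the log2 scale. Further falls were those of Tgfb2 (-1.38), Nuak2 (-1.38), Crim1 (-1.33), Fjx1 (-1.05), Lats2 (-0.93), Dock5 (-0.81) and Myof (-0.57). Not all members moved. Axl had a log2 fold change of 0.041 and Ccdc80 of -0.086, and neither passed. Gadd45a, a stress-induced growth arrest gene on the list, rose (0.92), and Asap1 passed as higher by 0.24, a call lost in 9 of the 12 leave-one-library-out fits (it was 0.21 without double knockdown replicate 3). Without replicate 3 all 11 falls remained.

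The start regions of these targets are shown because 3 of the strongest falls carry the TEAD motif there. Promoters of 250 bases before to 50 after the start, from RefSeq on build GRCr8, were matched by symbol, while the files use rn6. The letters CATTCC or their reverse complement GGAATG occurred in 5 of the 14 targets with a promoter in the table (35.7%), against 13.9% of all 27457 promoters and 11.2% of the 9390 that belong to genes compared here. Below are bases -200 to -1 of Ccn2 at chr1:22624615-22624814 (minus strand), Ccn1 at chr2:237225690-237225889 (minus strand) and Amotl2 at chr8:112182426-112182625 (plus strand), in the direction of transcription with the motif in capitals. Ccn2 held 3 copies, the first bases of which lie at -166, -101 and -92. A match describes the letters only.
Ccn2: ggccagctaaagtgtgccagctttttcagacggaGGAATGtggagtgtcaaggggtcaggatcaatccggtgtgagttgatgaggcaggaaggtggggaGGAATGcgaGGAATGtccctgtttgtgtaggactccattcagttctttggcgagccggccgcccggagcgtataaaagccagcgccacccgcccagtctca
Ccn1: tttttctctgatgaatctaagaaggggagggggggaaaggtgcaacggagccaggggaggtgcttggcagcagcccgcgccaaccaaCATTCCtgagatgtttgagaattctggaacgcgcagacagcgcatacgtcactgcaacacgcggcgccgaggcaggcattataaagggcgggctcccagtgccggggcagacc
Amotl2: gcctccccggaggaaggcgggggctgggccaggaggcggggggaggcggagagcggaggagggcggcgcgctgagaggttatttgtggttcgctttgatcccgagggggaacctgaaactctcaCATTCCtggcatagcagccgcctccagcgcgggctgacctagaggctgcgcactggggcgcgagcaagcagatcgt

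Components of the Hippo cascade changed in both directions, 5 higher and 9 lower of 25 tested. Ajuba, a LIM protein that restrains the Lats kinases, fell from 4357, 4130.2 and 5112 to 1916, 1935 and 1658 (log2 fold change -1.30, SE 0.12, limma adjusted p 2.98e-05). The Lats cofactor Mob1a (-0.78), the scaffold Wwc2 (-0.95) and the atypical cadherin Fat1 (-0.62) also fell. The rises included Dchs1, the protocadherin ligand of Fat4, which was 6687, 6438 and 7118 after double knockdown and 3313, 3256 and 3203 with negative siRNA (log2 fold change 1.05), Fat4 itself (0.60) and Vgll4 (0.50), a TEAD corepressor. All 14 calls remained without replicate 3.

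Transcripts of the cholesterol synthesis enzymes fell together. Of 20 enzymes from acetyl-CoA to cholesterol, 19 fell, none rose, and only Ebp, the sterol isomerase, did not pass (-0.12). The median was -1.14, and -1.22 without replicate 3. Msmo1, the sterol C4 methyl oxidase, was 7095, 7809 and 7901 with negative siRNA and 1630.1, 2010.2 and 2726 in the double knockdown (log2 fold change -1.87, SE 0.15, limma adjusted p 1.05e-05). Hmgcs1, the synthase that makes HMG-CoA, was 13291, 13065 and 11326 with negative siRNA and 3246, 3766 and 4726 in the double knockdown (log2 fold change -1.70, SE 0.12, limma adjusted p 8.52e-06). In both, replicate 3 was the highest of the double knockdown libraries and still well below every control. Fdps, which makes farnesyl pyrophosphate, had means of 17334 and 6118, and Cyp51, the lanosterol demethylase, 18095 and 7393. The smallest falls that passed were those of Hsd17b7 (-0.51), Mvk (-0.45) and Pmvk (-0.40). Replicate 3 was the double knockdown library nearest to the controls for 15 of the 19 enzymes, and 18 of the 19 passed without it.

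**Figure D3:**
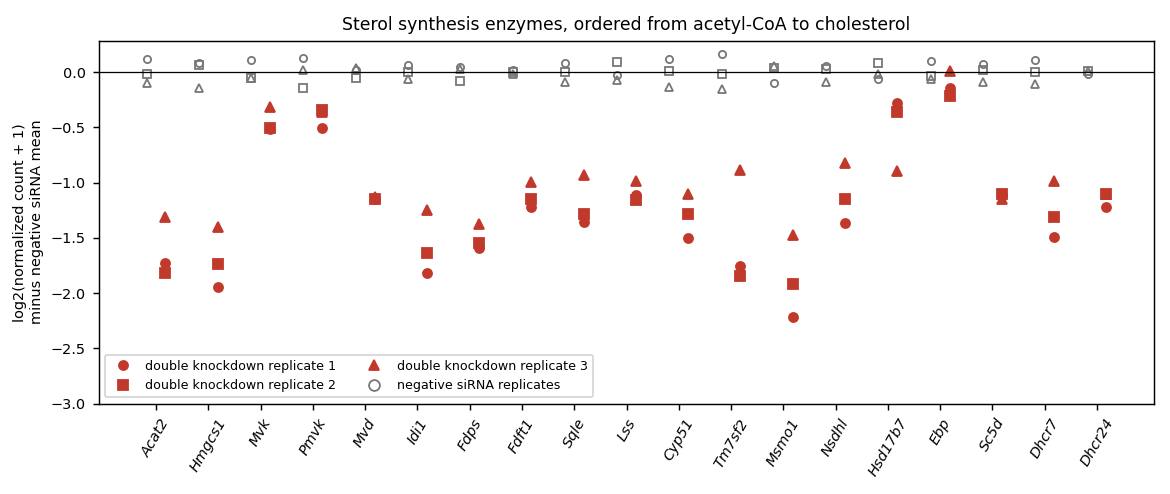
Log2(normalized count + 1) minus the negative siRNA mean for 19 of the 20 sterol synthesis enzymes in pathway order, with negative siRNA libraries as open grey and double knockdown libraries as filled red symbols (circle, square and triangle for replicates 1, 2 and 3). All plotted enzymes but Ebp lie below 0 in the 3 double knockdown libraries, with Msmo1 and Hmgcs1 lowest.

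Regulators of the pathway changed in both directions. Of 12 genes of SREBP2 control and sterol uptake, 5 fell and 2 rose. SREBP2 is the membrane-bound factor that enters the nucleus and switches on these enzymes when sterols are low. Its gene Srebf2 fell (-0.73), as did Stard4, a sterol carrier (-0.82). Insig1, which retains SREBP in the endoplasmic reticulum and is itself a target, was 11009.7, 9073 and 8020.4 with negative siRNA and 4782, 4651 and 5967 in the double knockdown. The escort protein Scap rose (0.44), as did the lysosomal exporter Npc1 (0.32). All 7 calls remained without replicate 3. Of the sterol efflux and LXR target list, 3 of 10 rose and none fell (30%, against 32.8% of all genes tested). Without replicate 3, 2 of these 3 rises remained. Abcg1, a cholesterol efflux transporter, was 880.2, 1312 and 1343 after double knockdown and 307, 386 and 329 with negative siRNA (log2 fold change 1.77, SE 0.21, limma adjusted p 0.000103). The LXR gene Nr1h3 itself rose (1.01).

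The start regions of the enzymes were searched because the enzymes fell together, and 4 of those with a CCAAT box are printed. The search was for the sterol regulatory element letters TCACNCCAC and for the CCAAT box on both strands. The former was in none of the 15 enzyme promoters in the table, against 1.13% of all promoters. At so low a share most groups of 15 would hold none, so this absence tells nothing about these enzymes. Other spellings of the element were not searched. CCAAT or ATTGG was in 12 of the 15 (80.0%), against 37.7% of all promoters. The promoter of Cyp51 held neither motif. Bases -200 to -1, with CCAAT or ATTGG in capitals, are those of Hmgcs1 at chr2:53382104-53382303 (plus strand), Msmo1 at chr16:29746913-29747112 (plus strand), Fdps at chr2:176804817-176805016 (minus strand) and Idi1 at chr17:66547525-66547724 (minus strand) of GRCr8.
Hmgcs1: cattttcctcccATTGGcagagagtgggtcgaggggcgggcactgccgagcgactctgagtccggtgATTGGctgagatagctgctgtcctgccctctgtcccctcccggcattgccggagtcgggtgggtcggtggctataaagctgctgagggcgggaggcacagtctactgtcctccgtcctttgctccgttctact
Msmo1: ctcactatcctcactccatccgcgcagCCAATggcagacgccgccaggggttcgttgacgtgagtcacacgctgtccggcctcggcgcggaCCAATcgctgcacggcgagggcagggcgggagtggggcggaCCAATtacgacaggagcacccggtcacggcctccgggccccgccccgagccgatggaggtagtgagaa
Fdps: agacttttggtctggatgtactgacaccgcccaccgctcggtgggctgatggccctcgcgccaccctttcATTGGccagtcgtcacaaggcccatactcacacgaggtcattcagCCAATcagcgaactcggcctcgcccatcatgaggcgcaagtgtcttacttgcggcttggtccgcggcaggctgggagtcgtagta
Idi1: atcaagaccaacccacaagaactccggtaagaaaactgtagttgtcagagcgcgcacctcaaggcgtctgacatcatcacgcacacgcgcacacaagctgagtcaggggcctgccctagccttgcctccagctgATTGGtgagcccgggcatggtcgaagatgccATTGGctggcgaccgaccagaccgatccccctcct

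Transcripts of fatty acid synthesis fell in part. Of 19 tested genes 10 fell and 3 rose, and all 13 passed without replicate 3. Scd, a stearoyl-CoA desaturase, was 4604, 3809 and 3391 with negative siRNA and 991, 886 and 1745 in the double knockdown (log2 fold change -1.76, SE 0.20, limma adjusted p 8.36e-05). Its value in replicate 3 was the highest of the double knockdown libraries. Fasn (fatty acid synthase) fell by 0.83, Acly (ATP citrate lyase) fell by 0.67 and Elovl6, an elongase, fell by 1.06 on the log2 scale. The rises were Acacb (1.08), Lpin1 (1.05) and Acss2 (0.52). The call of Acacb, the mitochondrial acetyl-CoA carboxylase, was lost without double knockdown replicate 1 and without negative siRNA replicate 3, each of which left 1 rise on the list. On the side of oxidation, 6 of 20 genes rose and 1 fell (35%, against 32.8% of all genes tested). The fall was lost in 9 of the 12 leave-one-library-out fits, that without replicate 3 among them. Cpt1a, the carnitine transferase that admits fatty acids to mitochondria, was 3472, 2894 and 2064 after double knockdown and 1069, 976 and 1017 with negative siRNA (log2 fold change 1.43, SE 0.15, limma adjusted p 4.50e-05). Cpt1b rose as well (1.20), a call lost without double knockdown replicates 1 or 2 or negative siRNA replicate 3. The 7 calls of this list became 4, 4 and 3 without double knockdown replicate 1, double knockdown replicate 2 and negative siRNA replicate 3.

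Genes of the integrated stress response and targets of ATF4 mostly fell. The factor ATF4 is made when the integrated stress response slows general translation, and it switches on amino acid synthesis and transport. Of 34 tested genes on this list 23 fell and 5 rose, and every one of those calls remained without replicate 3. Of the falls 1, that of Wars1, a tRNA synthetase, belongs to the interferon list as well. The median was -0.44, with -0.51, -0.36 and -0.46 in double knockdown replicates 1, 2 and 3. Atf4 itself was 22466, 22695 and 24830.2 with negative siRNA and 15599, 18238 and 15889.8 in the double knockdown (log2 fold change -0.50, SE 0.079, limma adjusted p 0.000663). The serine synthesis enzymes fell together, Phgdh from 10409, 9682 and 11748 to 5444, 6051 and 6707, with Psat1 (-0.85) and Psph (-0.76) beside it. Asns, asparagine synthetase, fell by 0.73, Mthfd2, a mitochondrial folate enzyme, fell by 0.78 and Slc7a11, the cystine carrier, fell by 0.88 on the log2 scale. The amino acid carrier Slc1a4 (log2 fold change -1.29, SE 0.12, limma adjusted p 2.16e-05) and the lipoprotein receptor Vldlr (log2 fold change -1.52, SE 0.10, limma adjusted p 5.98e-06) showed the largest falls of the list. Vldlr was 18062, 17051 and 16865 with negative siRNA and 5879.8, 5337 and 6983 in the double knockdown. The 5 that rose were not synthesis enzymes. They were Cebpb and Ddit3 (Chop), bZIP transcription factors, the mTORC1 inhibitor Ddit4 (1.28), the cytokine Gdf15 (0.41) and the glycine carrier Slc6a9 (0.37). Cebpb was 9557, 10434 and 10539.7 after double knockdown and 3871, 3977 and 3694 with negative siRNA (log2 fold change 1.40, SE 0.14, limma adjusted p 3.21e-05), and Ddit3 was 4876, 4195 and 3976 after double knockdown and 1766, 1714 and 1677 with negative siRNA (log2 fold change 1.33, SE 0.21, limma adjusted p 0.000539). Chaperones of the endoplasmic reticulum barely moved: of 20 tested, 4 fell and none rose, with a median of -0.014. The 4 falls became 2 without double knockdown replicate 1 and 2 without negative siRNA replicate 2, and without negative siRNA replicate 3 the list held 2 rises and 1 fall.

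The contractile program of myofibroblasts was lower, and most so in replicate 3. Of 21 smooth muscle genes, 10 fell and 4 rose. Acta2, smooth muscle actin, was 249844, 251359 and 338686 with negative siRNA and 132728, 165488 and 82853 in the double knockdown (log2 fold change -1.18, SE 0.23, limma adjusted p 0.00243). Tagln (transgelin) was 147561, 138457 and 187582 with negative siRNA and 79653, 91276 and 47034 in the double knockdown (log2 fold change -1.16, SE 0.22, limma adjusted p 0.00208). In both genes replicate 3 was lowest in the double knockdown and negative siRNA replicate 3 highest among controls. The tropomyosins Tpm1 (-0.83), Tpm2 (-0.73) and Tpm4 (-0.59) fell with the actin-binding genes Cald1 (-0.78) and Cnn3 (-0.68). The list median was -0.59 and -0.28 without replicate 3, and 8 of the 10 falls remained, those of Tpm2 and Csrp1 being lost. Des moved the other way. The intermediate filament gene was 6012, 8409 and 8233 after double knockdown and 3396, 3797 and 1866 with negative siRNA (log2 fold change 1.37, SE 0.29, limma adjusted p 0.00387), and its partner synemin, Synm, was 109, 254 and 224 after double knockdown and 62.6, 75.0 and 68.2 with negative siRNA. The call of Synm was lost without double knockdown replicate 2. Synpo2 (1.26) and the myosin kinase Mylk (0.40) were the other two that rose. Des and Synm are also expressed in cardiomyocytes, whose 21 tested markers summed to 114617, 130780.3 and 102393 in the double knockdown and 100527, 103220.2 and 64062 with negative siRNA, ranges that overlap. Their part in the rise of Des was not tested.

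Adhesion genes fell broadly. Among 34 integrin and focal adhesion genes, 21 fell and 4 rose, and 18 of the falls remained without replicate 3. The collagen receptor subunit Itga11 was 7338, 8690.3 and 9130.5 with negative siRNA and 2041, 1889.8 and 3153 in the double knockdown (log2 fold change -1.86, SE 0.20, limma adjusted p 4.89e-05). Itga4, whose dimer binds Vcam1 and fibronectin, was 2892, 4471 and 3825 with negative siRNA and 1392, 1214 and 837 in the double knockdown (log2 fold change -1.71, SE 0.23, limma adjusted p 0.000209). Itgb1, the common beta subunit, had means of 129907 and 64733. The linker proteins vinculin (Vcl, -1.22), zyxin (Zyx, -0.80), talin (Tln1, -0.46) and filamin (Flna, -0.67) all fell. Itga5, the alpha chain of the fibronectin receptor, rose instead, at 14498, 18788 and 11310.1 after double knockdown and 8521, 9327 and 9391 with negative siRNA (log2 fold change 0.68, SE 0.15, limma adjusted p 0.00408). Itga10, a low gene, rose from 0, 0 and 0 to 58.7, 53.5 and 27.2. With 0 in every control it reached the filter on the mean only through knockdown libraries. Itga7 passed as higher (0.41), a call lost in 4 of the 12 leave-one-library-out fits.

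Matrix genes divided. Of 20 collagen chains, 6 fell and 5 rose. Col11a1, a minor fibrillar collagen, was 6089, 4453 and 4079 with negative siRNA and 992, 959 and 1816 in the double knockdown (log2 fold change -1.999, SE 0.24, limma adjusted p 0.000101). Col14a1, a fibril-associated collagen, had a log2 fold change of -1.09, and the 2 most abundant chains that fell were Col1a2 (-0.43) and Col4a1 (-0.40). The Col1a2 call was lost in 5 of the 12 leave-one-library-out fits (every double knockdown or control library but double knockdown replicate 3, with -0.53 in that fit), and that of Col4a1 in 9, with -0.29 without replicate 3. Rises were those of Col7a1 (1.42), Col18a1 (1.14), Col16a1 (1.09), Col5a3 (0.95) and Col15a1 (0.84, not passing without replicate 3). Col18a1, the basement membrane collagen that yields endostatin, was 17646, 19256 and 16448 after double knockdown and 8909, 8730.3 and 6778 with negative siRNA. Enzymes that modify collagen were also split, with 7 falls and 5 rises of 28. Lox, the crosslinking oxidase, was 7258, 8584 and 8456 with negative siRNA and 4125, 3621 and 5803 in the double knockdown (log2 fold change -0.87, SE 0.15, limma adjusted p 0.00126), and the prolyl hydroxylases P4ha1 (-0.69) and P4ha2 (-0.88) fell, while the lysyl hydroxylase Plod1 rose (0.58).

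Transcripts of the matricellular genes Ccn1, Ccn2, Ccn3 and Ccn5 fell. Beside Ccn1 and Ccn2, Ccn3 was 14764, 14741 and 24288 with negative siRNA and 6275, 5650.0 and 4533 in the double knockdown (log2 fold change -1.68, SE 0.24, limma adjusted p 0.000328), and Ccn5 fell by 1.55 and Thbs1 (thrombospondin 1) fell by 1.08 on the log2 scale. These were the 5 falls among 25 matricellular genes, and 7 rose. Tgfbi, a collagen-binding protein, was 1596, 2589 and 2008 after double knockdown and 578, 381 and 329.7 with negative siRNA (log2 fold change 2.28, SE 0.24, limma adjusted p 5.46e-05). Mgp, matrix Gla protein, was 72523, 43700.2 and 93258 after double knockdown and 30154, 23039 and 13453 with negative siRNA (log2 fold change 1.66, SE 0.37, limma adjusted p 0.00480). Thbs2 (1.35) and Postn, periostin (0.72), rose too. Without replicate 3 the list kept 10 of its 12 calls, and the low genes Tnn and Thbs4 did not pass. Among 9 small proteoglycans 3 rose and 1 fell (44.4%, against 32.8% of all genes tested), and Dcn (decorin) and Lum (lumican) rose most. Dcn was 19496, 16321 and 51879 after double knockdown and 8338, 6793 and 4425 with negative siRNA (log2 fold change 2.01, SE 0.39, limma adjusted p 0.00211). Lum was 9037, 8338 and 27679 after double knockdown and 7467, 4454 and 2957 with negative siRNA (log2 fold change 1.47, SE 0.42, limma adjusted p 0.0186). Replicate 3 was far above the other double knockdown libraries in both. Without it the log2 fold change of Dcn was 1.50 and that of Lum 0.91, which both still passed, whereas without negative siRNA replicate 3 Lum did not. The proteoglycan list median was 0.26, and -0.032 without replicate 3, so it has no stable direction. Its 4 calls became 2 without double knockdown replicate 1 and 2 without negative siRNA replicate 2, and without negative siRNA replicate 3 they were 1 rise and 2 falls.

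Elastic fibre genes held 6 rises and 3 falls of 16. Fbln1 (fibulin 1) was 9939, 9309 and 33023 after double knockdown and 3397, 3845 and 1509 with negative siRNA (log2 fold change 2.42, SE 0.49, limma adjusted p 0.00282), and Efemp1 (fibulin 3) was 314, 387 and 675 after double knockdown and 64.6, 60.0 and 37.2 with negative siRNA (log2 fold change 3.03, SE 0.43, limma adjusted p 0.000305). Fbln5 was 9123, 6978 and 9779.5 with negative siRNA and 4114, 3559 and 5772 in the double knockdown (log2 fold change -0.96, SE 0.17, limma adjusted p 0.00141), in the opposite direction to Fbln1. Ltbp2, a latent TGF-beta binding protein relative, fell from 30457, 33108 and 40797 to 21520.2, 22643 and 10277, a log2 fold change of -1.01 that became -0.65 without double knockdown replicate 3 and lost its call without negative siRNA replicate 3. In the laminin and basement membrane list, 6 of 14 rose and 2 fell, led by Lama1, Lamb3 and Col18a1. The 8 calls became 5 without double knockdown replicate 3, 5 without negative siRNA replicate 1 and 4 without negative siRNA replicate 3, and Lamb3 (1.16) was among those lost without either replicate 3.

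Matrix proteases rose more often than they fell, with 16 higher and 5 lower of 39. Htra3, a secreted serine protease, was 6429, 6405 and 15268 after double knockdown and 1619, 1242 and 762 with negative siRNA (log2 fold change 2.89, SE 0.36, limma adjusted p 0.000142). Its log2 fold change was 2.48 without replicate 3. Adamts4, an aggrecanase, was 932, 885 and 1138 after double knockdown and 272, 269 and 228 with negative siRNA (log2 fold change 1.93, SE 0.16, limma adjusted p 1.30e-05). Mmp2, gelatinase A, had means of 84651 in the double knockdown and 46576 with negative siRNA, and Mmp14, its activator, rose by 0.42. Without replicate 3, 15 were higher and 9 lower, 20 of the 21 calls remained, and the list median went from 0.22 to 0.095.

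In TGF-beta signaling, which drives fibroblast activation, the ligands Tgfb2 and Tgfb3 fell and the receptors Tgfbr2 and Tgfbr3 rose. Tgfb3 was 39961, 35120.1 and 56397 with negative siRNA and 17026, 18267 and 12382 in the double knockdown (log2 fold change -1.45, SE 0.21, limma adjusted p 0.000355), and Tgfb2 had means of 6727 and 2539. Tgfbr3 (betaglycan, the coreceptor) was 3451, 2616 and 3089 after double knockdown and 899, 1022 and 560.2 with negative siRNA (log2 fold change 1.92, SE 0.25, limma adjusted p 0.000158), and the signaling receptor Tgfbr2 rose by 0.85. Smad3, a mediator, rose (0.66), whereas Smad2 (-0.60) and the inhibitor Smad7 (-0.45) fell. In all 9 of 22 genes rose and 6 fell, each kept without replicate 3. The BMP list held 7 rises and 6 falls of 28, and ligands went both ways. Gdf6 was 2721, 2647 and 3669 with negative siRNA and 865, 704 and 665 in the double knockdown (log2 fold change -2.01, SE 0.21, limma adjusted p 4.45e-05), Bmp4 fell by 1.23 and Bmp6 fell by 1.04 on the log2 scale. The BMP regulator Bmper was 599, 603 and 1027 after double knockdown and 183, 285 and 224 with negative siRNA (log2 fold change 1.66, SE 0.21, limma adjusted p 0.000171). Gdf10, a low gene, rose from 5.13, 0 and 3.10 to 57.7, 90.3 and 104. Bmp2 passed as higher (0.87), a call lost in 3 of the 12 leave-one-library-out fits (double knockdown replicate 2, negative siRNA replicates 1 and 3).

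Wnt pathway genes rose in 15 cases and fell in 6 of 37. The secreted modulators Sfrp2 and Sfrp4 rose most among genes with a mean of at least 100. Sfrp2 was 408, 504 and 639.7 after double knockdown and 104, 85.0 and 62.0 with negative siRNA (log2 fold change 2.62, SE 0.31, limma adjusted p 0.000106). Sfrp4 was 348, 416 and 233 after double knockdown and 67.7, 96.0 and 114 with negative siRNA (log2 fold change 1.83, SE 0.25, limma adjusted p 0.000221). The receptor Fzd4 fell from 4566, 4749 and 5983 to 1845, 2304 and 1883 (log2 fold change -1.34, SE 0.19, limma adjusted p 0.000330), and Axin2, a feedback target of beta-catenin, rose from 80.0, 54.0 and 54.8 to 192, 149 and 355 (log2 fold change 1.79). The Notch list held 6 rises and 4 falls of 20. Its ligand Jag1 was 7094, 8567 and 10149.5 with negative siRNA and 2296, 2558 and 2240.3 in the double knockdown (log2 fold change -1.85, SE 0.19, limma adjusted p 4.34e-05). The receptors went opposite ways, Notch3 lower (-0.81) and Notch1 (0.50) and Notch2 (0.44) higher.

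The ligands Tgfa, Nrg1 and Hbegf, which act through EGF-family receptors, fell. Tgfa was 537, 389 and 648 with negative siRNA and 126, 107 and 84.2 in the double knockdown (log2 fold change -2.29, SE 0.24, limma adjusted p 4.87e-05). Nrg1, neuregulin, was 1194, 887 and 1354 with negative siRNA and 382, 218 and 259.7 in the double knockdown (log2 fold change -2.01, SE 0.23, limma adjusted p 7.38e-05). Hbegf fell by 0.75 on the log2 scale, a call lost without replicate 3 (-0.63). Pdgfa fell by 1.12 and Vegfc fell by 1.13 on the log2 scale. Rises on the same list of 41 genes (7 higher, 9 lower) included the receptors Egfr (0.91) and Pdgfra, the PDGF receptor that marks fibroblasts, at 15774, 11844 and 18203 after double knockdown and 4898, 5419.7 and 3296 with negative siRNA (log2 fold change 1.76, SE 0.22, limma adjusted p 0.000137). Hgf, hepatocyte growth factor, was 894, 753 and 722 after double knockdown and 179, 177 and 109.6 with negative siRNA (log2 fold change 2.37, SE 0.21, limma adjusted p 1.66e-05). Immediate early and ERK feedback genes held 7 rises and 7 falls of 33. Among the feedback inhibitors, Spry1 fell (-1.40), as did Spry4 (-0.96), which was -0.58 without double knockdown replicate 3 and lost its call without negative siRNA replicate 3. Dusp5 rose (1.11), as did Nr4a1, an orphan nuclear receptor, at 3413, 3756 and 4382 after double knockdown and 1192, 639 and 798 with negative siRNA (log2 fold change 2.18, SE 0.19, limma adjusted p 1.66e-05).

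Vasoactive peptide systems held some of the largest changes outside the interferon list. Edn1, the precursor of endothelin, was 2258, 2265 and 3265 with negative siRNA and 385, 564 and 511 in the double knockdown (log2 fold change -2.41, SE 0.24, limma adjusted p 4.03e-05). The groups were far apart. Its receptors rose, Ednra to 1812, 1676 and 2608 from 554, 437 and 321 and Ednrb to 586, 507 and 1982 from 134, 87.0 and 55.8. Ace, angiotensin-converting enzyme, was 1391, 1313 and 1630.4 after double knockdown and 89.3, 80.0 and 74.4 with negative siRNA (log2 fold change 4.13, SE 0.31, limma adjusted p 8.60e-06). Agt, angiotensinogen, was 917, 889 and 1119 after double knockdown and 24.6, 40.0 and 37.2 with negative siRNA (log2 fold change 4.83, SE 0.43, limma adjusted p 2.07e-05). Replicate 3 was the highest library for both genes, with log2 fold changes of 4.04 and 4.72 without it. Enpep, which degrades angiotensin, rose (1.41), and the angiotensin receptor Agtr1a did not pass (-0.37). For adrenomedullin, the peptide gene Adm (-0.73) and coreceptor Ramp1 (-1.02) fell while the receptor Calcrl (1.57) and Ramp2 (0.80) rose. Of 24 genes 9 rose and 3 fell, and 11 of these 12 calls remained without replicate 3.

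The insulin-like growth factor list rose in 4 of 16 genes and fell in none, a share (25%) below the 32.8% of all genes tested. Igf1 rose by 1.43. Igfbp4 was 3855, 3318 and 17511 after double knockdown and 1097, 678 and 519.9 with negative siRNA (log2 fold change 3.06, SE 0.51, limma adjusted p 0.000899), where replicate 3 was the highest, and its log2 fold change was 2.29 without it. Igfbp5 was 5705, 3632 and 6056 after double knockdown and 1698, 2149 and 812 with negative siRNA (log2 fold change 1.80, SE 0.44, limma adjusted p 0.00861). Without replicate 3, 6 genes rose and 3 fell. Transcription factors of cardiac fibroblasts rose in 16 and fell in 5 of 34. Nr2f1 was 905, 894 and 1489 after double knockdown and 384, 347 and 435 with negative siRNA (log2 fold change 1.46, SE 0.20, limma adjusted p 0.000292), and Prrx2 was 1223, 1942 and 1638 after double knockdown and 561, 683 and 688 with negative siRNA (log2 fold change 1.29, SE 0.20, limma adjusted p 0.000614), with Prrx1 (0.75) beside it. Sox9 (-1.11), Srf, the partner of myocardin factors at contractile genes (-0.58), and Tcf21 (-0.42) fell. In this list 20 of 21 calls remained without replicate 3.

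Cell cycle genes fell, by an extent that depended on which libraries were included. In the list of DNA replication and S phase, 19 of 45 genes fell and none rose, with a median of -0.49. Its median by library was -0.75, -0.57 and -0.10 in double knockdown replicates 1, 2 and 3. Cdc45, a helicase component, was 525, 473 and 442 with negative siRNA and 137, 219 and 373 in the double knockdown (log2 fold change -1.09, SE 0.30, limma adjusted p 0.0167), and its call was lost without double knockdown replicate 1 or negative siRNA replicate 1. Orc1, of the origin recognition complex, was 249, 255 and 297 with negative siRNA and 126, 112 and 161 in the double knockdown (log2 fold change -1.01, SE 0.21, limma adjusted p 0.00343). Replicate 3 was the double knockdown library nearest to the controls in 18 of the 19 genes, and in 19 of the 21 mitosis genes that fell. Without replicate 3, 36 genes fell, and without double knockdown replicates 1 or 2, 7 and 9. Leaving out negative siRNA replicates 1 or 3 left 8 and 11. The mitosis list was alike, with 21 of 47 lower and none higher and medians of -0.67, -0.53 and -0.16 by library. Melk, a mitotic kinase, was 598, 629 and 576 with negative siRNA and 283, 348 and 459 in the double knockdown (log2 fold change -0.75, SE 0.17, limma adjusted p 0.00592), and Plk4, which starts centriole duplication, fell by 0.70, a call lost without double knockdown replicates 1 or 2 or negative siRNA replicate 3. Here 31 genes fell without replicate 3, 8 without replicate 1, 10 without replicate 2, 9 without negative siRNA replicate 1 and 8 without negative siRNA replicate 3. With replicate 3 as the lone double knockdown library, 1 gene of each list remained. The summed macrophage marker level moved with this split, as given above. So did the remaining Yap1 and Wwtr1, which were highest in replicate 3, and the design cannot tell the parts of these apart. With macrophage marker level as a covariate, the replication and mitosis medians were -0.30 and -0.31, against -0.49 and -0.45 without it. Of the falls, 17 of the 19 and 16 of the 21 remained. In the list of D cyclins, CDK inhibitors and p53 targets, 6 rose and 6 fell of 30. Ccnd1 rose (0.50), whereas Ccnd2 (-0.45) and Ccnd3 (-0.59) fell.

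**Figure D4:**
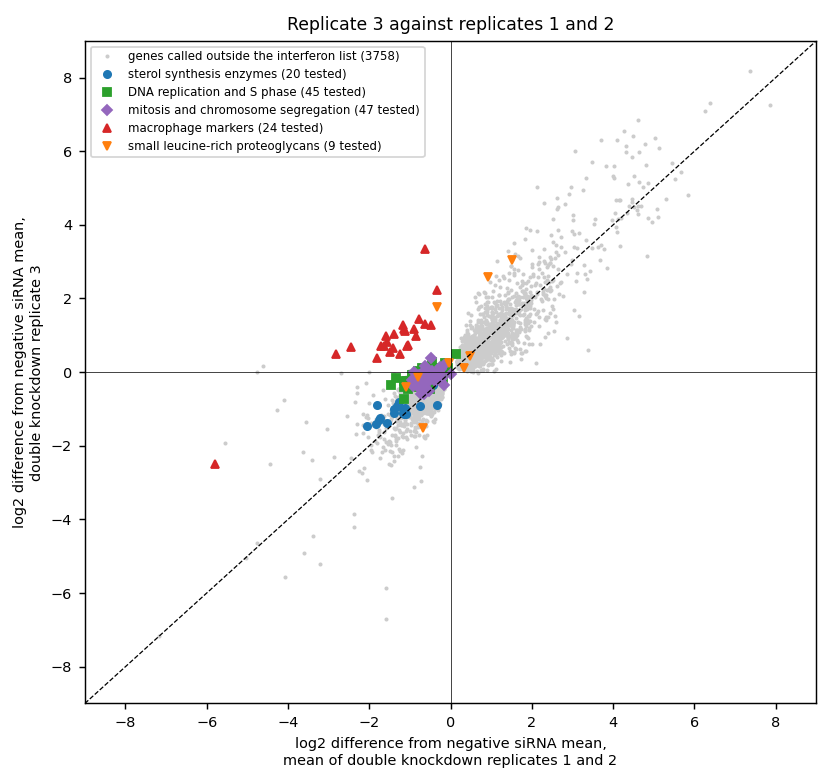
Log2 difference from the negative siRNA mean in double knockdown replicate 3 (vertical axis) against the mean of replicates 1 and 2 (horizontal axis), for the 3758 genes that passed outside the interferon list (grey) and all tested members of 5 lists (colors), with the line of equality dashed. Sterol enzymes lie near the line below 0, most replication and mitosis genes lie below 0 on the horizontal axis and nearer to 0 on the vertical axis, and macrophage markers other than Cx3cr1 lie above 0 in replicate 3.

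Changes in energy metabolism were small. Of 73 tested subunits of oxidative phosphorylation 19 fell and 2 rose (28.8%, against 32.8% of all genes tested). The median was -0.16, against 0.0035 over all genes. The 2 rises were lost without double knockdown replicate 1 or negative siRNA replicate 2. The largest fall was that of Ndufb5, of complex I, at 3349, 3536 and 3495 with negative siRNA and 1987, 2447 and 2582 in the double knockdown (log2 fold change -0.57, SE 0.10, limma adjusted p 0.00152). In glycolysis and glucose uptake 7 of 29 rose and 5 fell. Glycolytic enzymes Pgam1 (-0.58), Eno1 (-0.55), Gapdh (-0.47) and Pgk1 (-0.41) fell, while the carrier Slc2a1 (0.59) and Pdk2 (0.81), an inhibitory kinase of pyruvate dehydrogenase, rose. All 12 calls remained without replicate 3, and without negative siRNA replicate 3 the list held 4 rises and 4 falls.

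Complement genes rose strongly. Of 18 tested, 11 rose and 1 fell (Cd55, -0.55, a call lost in 8 of the 12 leave-one-library-out fits), and the median was 1.56, with 1.33, 1.25 and 1.87 in replicates 1, 2 and 3. Of these calls 5, all rises, belong to the interferon list as well (C1r, C1s, C2, Cfb and Serping1). Outside it, C3, the central component, was 395, 377 and 1264 after double knockdown and 65.7, 206 and 49.6 with negative siRNA (log2 fold change 2.69, SE 0.58, limma adjusted p 0.00434). C4b was 1298, 1097 and 5607 after double knockdown and 84.1, 70.0 and 56.8 with negative siRNA (log2 fold change 4.83, SE 0.71, limma adjusted p 0.000410), where reads shared with the near-identical C4a leave the division between them uncertain. C6, of the lytic complex, was 184, 107 and 863 after double knockdown and 15.4, 18 and 3.10 with negative siRNA, and its call was lost without negative siRNA replicate 3. Replicate 3 was the highest library for all 11 rises, and all 11 remained without it.

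Chemokine, cytokine and NF-kappaB genes included 14 rises and 4 falls of 33, and 16 of these 18 calls remained without replicate 3. Cxcl13, a B cell chemoattractant, was 246, 277 and 456 after double knockdown and 0, 3.00 and 0 with negative siRNA. Tnfrsf11b (osteoprotegerin), a decoy receptor for RANK ligand, was 10521, 11506 and 10793 with negative siRNA and 2474, 2465 and 3461 in the double knockdown (log2 fold change -1.98, SE 0.12, limma adjusted p 4.55e-06). Il1rl1, the receptor of interleukin 33, was 5335, 6672 and 8243 with negative siRNA and 705, 1168 and 1345 in the double knockdown (log2 fold change -2.68, SE 0.29, limma adjusted p 5.54e-05), and Il33, its ligand, was 158, 237 and 751 after double knockdown and 62.6, 73.0 and 59.9 with negative siRNA (log2 fold change 2.21, SE 0.44, limma adjusted p 0.00252). Vcam1, an adhesion molecule for leukocytes, was 3069, 2644 and 6677 after double knockdown and 509, 781 and 241 with negative siRNA (log2 fold change 3.05, SE 0.60, limma adjusted p 0.00243). Replicate 3 was highest for Il33 and Vcam1, whose log2 fold changes without it were 1.56 and 2.64. Among eicosanoid genes 6 rose and 2 fell of 26 (30.8%, against 32.8% of all genes tested). Alox15, a lipoxygenase, was 1044, 1371 and 2991 after double knockdown and 88.3, 43.0 and 26.9 with negative siRNA (log2 fold change 5.09, SE 0.47, limma adjusted p 2.67e-05), and Alox12 was 226, 219 and 235 with negative siRNA and 51.7, 27.6 and 98.3 in the double knockdown (log2 fold change -2.10, SE 0.40, limma adjusted p 0.00206). Pla2g2a, a secreted phospholipase, was 572, 634 and 4641 after double knockdown and 53.4, 107 and 62.0 with negative siRNA (log2 fold change 4.05, SE 0.91, limma adjusted p 0.00520). The 8 calls became 5 without double knockdown replicate 2, and without replicate 3 the falls numbered 4.

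Markers of other cell types were read in full because the cultures could hold such cells. Of 24 macrophage markers 1 passed, Cx3cr1, the fractalkine receptor, at 276, 259.9 and 295 with negative siRNA and 0, 24.2 and 48.3 in the double knockdown (log2 fold change -4.69, SE 1.09, limma adjusted p 0.00647). Without double knockdown replicate 1 its value was -2.98. The list median by library was -1.71, -0.90 and 0.90, and without replicate 3, 20 of the 24 fell. Lyz2, the most abundant, was 14275, 10644 and 9893 with negative siRNA and 2649, 5653 and 20209.8 in the double knockdown, and Ms4a7 was at 0 in a library of each group. Cardiomyocyte markers rose in 5 and fell in 1 of 21 (28.6%, against 32.8% of all genes tested). Myh6 was 26279, 29002 and 25636 after double knockdown and 9496, 9986 and 4616 with negative siRNA (log2 fold change 1.83, SE 0.35, limma adjusted p 0.00206). Ckm, muscle creatine kinase, was 489, 539 and 354 after double knockdown and 160.1, 186 and 98.2 with negative siRNA. Without replicate 3 the rises numbered 3, and Myl2 and Tnni3 did not pass. Leaving out double knockdown replicate 2 or negative siRNA replicate 3 also left 3 rises, whereas 8 passed without Yap siRNA replicate 3. Endothelial markers rose in 8 of 16, among them Esam (1.45) and Kdr (1.79), which became 5, beside 1 fall, without double knockdown replicate 1, 4 without double knockdown replicate 3, 4 without negative siRNA replicate 2 and 5 without negative siRNA replicate 3. Their summed counts were 5946, 5112 and 5188 in the double knockdown and 5002, 5046 and 5386 with negative siRNA. Mural cell markers included 4 rises, with Abcc9 at 2066, 1325 and 2546 after double knockdown and 629, 538 and 387 with negative siRNA, and 2 falls, Mcam and Notch3. The adipocyte list held Lpl, lipoprotein lipase, at 15929, 12958 and 23703 after double knockdown and 4963, 5026 and 3101 with negative siRNA (log2 fold change 1.99, SE 0.25, limma adjusted p 0.000129), and Cebpa, whose call was lost without double knockdown replicate 3. Each of the adipocyte, Schwann cell and mesothelial lists passed in 2 genes, of 5, 6 and 9 tested. The 2 Schwann cell calls were Mbp (-1.77) and S100b (1.39), and 1 remained without double knockdown replicate 2, negative siRNA replicate 2 or negative siRNA replicate 3. The 2 adipocyte calls became 1 without double knockdown replicates 2 or 3 or negative siRNA replicate 2. The part of such cells in the changes above was not tested.

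**Figure D5:**
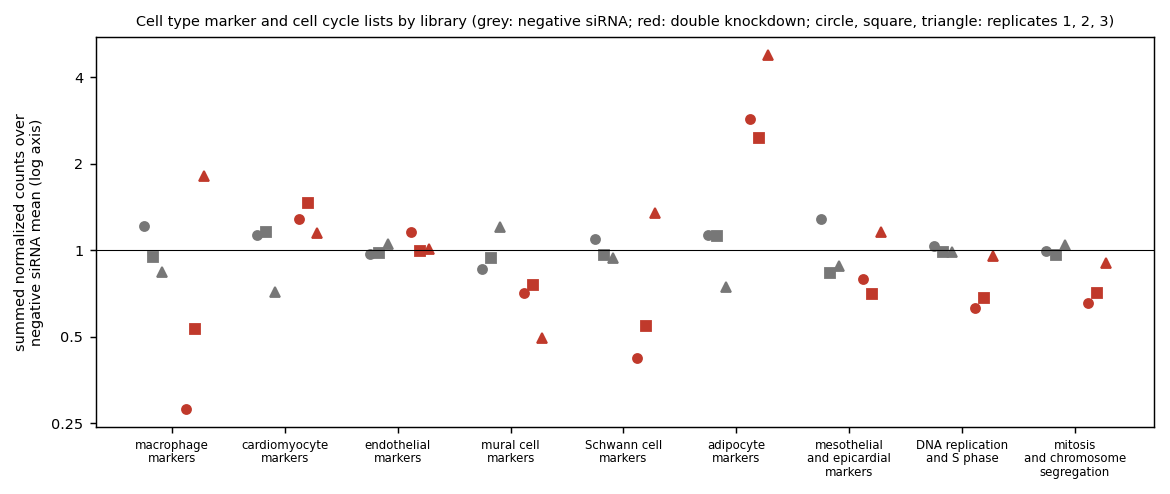
Summed normalized counts of 7 cell type marker lists and 2 cell cycle lists divided by the negative siRNA mean (log axis), for negative siRNA (grey) and double knockdown (red) replicates 1, 2 and 3 (circle, square, triangle). Macrophage and Schwann cell markers lie below the controls in double knockdown replicates 1 and 2 and above them in replicate 3, and the cell cycle lists lie nearer to the controls in replicate 3.

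Outside the interferon list, the genes with a mean of at least 5000 over the 6 libraries and no overlap that fell most were Tnfrsf11b, Ddah1, Itga11, Jag1, Ccn2, Amotl2, Hmgcs1, Lmcd1, Ccn3, Ankrd1, Ccn1 and Fads3. Ddah1, which breaks down an inhibitor of nitric oxide synthase, was 13201, 12959.5 and 19530.1 with negative siRNA and 4201, 4805 and 2953 in the double knockdown (log2 fold change -1.94, SE 0.26, limma adjusted p 0.000215). Lmcd1, a LIM domain protein, was 6834, 7338 and 11244 with negative siRNA and 2819, 3569 and 1697 in the double knockdown (log2 fold change -1.68, SE 0.29, limma adjusted p 0.00113). Both were lowest in replicate 3. The 12 largest rises of this class, the interferon list again left out, were those of Htra3, Fbln1, Dcn, Lpl, Cp, Myh6, Gfpt2, Pdgfra, Enpp3, Mgp, Hmox1 and Slc39a14. Cp (ceruloplasmin, a ferroxidase) was 8217, 6837 and 9001 after double knockdown and 2333, 2559 and 1712 with negative siRNA (log2 fold change 1.88, SE 0.15, limma adjusted p 1.10e-05). Hmox1 (heme oxygenase 1) was 8210.1, 7840.0 and 7269 after double knockdown and 2766, 2414 and 2272 with negative siRNA (log2 fold change 1.65, SE 0.13, limma adjusted p 9.76e-06), and Slc39a14, a zinc and iron importer, was 9270.2, 8838 and 8447 after double knockdown and 2889.7, 3305 and 2372 with negative siRNA (log2 fold change 1.64, SE 0.13, limma adjusted p 1.05e-05). Their double knockdown libraries lay close together, replicate 3 included. Gfpt2, of the hexosamine pathway, was 8720.3, 7670.2 and 7387 after double knockdown and 2489, 2629.9 and 1867 with negative siRNA (log2 fold change 1.78, SE 0.21, limma adjusted p 9.86e-05). All 24 genes passed without replicate 3, and all 24 kept their calls in the 12 leave-one-library-out fits.

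Genes in none of the lists were named where their mean over the 6 libraries was at least 500. Xdh, xanthine dehydrogenase, was 4354, 3428 and 4563 after double knockdown and 139.6, 91.0 and 52.7 with negative siRNA (log2 fold change 5.53, SE 0.54, limma adjusted p 3.35e-05). Npy, neuropeptide Y, was 4474, 3466 and 5501 after double knockdown and 301, 304 and 111 with negative siRNA (log2 fold change 4.34, SE 0.50, limma adjusted p 8.02e-05), and Penk, proenkephalin, was 4846, 4788 and 11591 after double knockdown and 601, 551 and 639.8 with negative siRNA (log2 fold change 3.43, SE 0.26, limma adjusted p 8.98e-06). Prg4 (lubricin) was 861, 724 and 1981 after double knockdown and 78.0, 26.0 and 55.8 with negative siRNA (log2 fold change 4.44, SE 0.43, limma adjusted p 3.19e-05). Chi3l1, a chitinase-like protein, was 1662, 1022 and 1958 after double knockdown and 55.4, 134 and 59.9 with negative siRNA (log2 fold change 4.27, SE 0.59, limma adjusted p 0.000264). The groups were far apart in each, and replicate 3 was the highest library in all 5. Tmem178a (4.61) also rose. The largest falls were those of Fcrl2, an Fc receptor-like gene, at 3382, 2529.9 and 1189.6 with negative siRNA and 25.9, 365 and 380.0 in the double knockdown (log2 fold change -3.80, SE 0.97, limma adjusted p 0.0105), and of Fam107b at 2120.1, 2092 and 3262 with negative siRNA and 546, 432 and 759.9 in the double knockdown (log2 fold change -2.11, SE 0.25, limma adjusted p 8.87e-05). Afap1l2, an actin filament associated protein, was 4941, 4666 and 5347 with negative siRNA and 1449, 1429 and 1510.2 in the double knockdown (log2 fold change -1.77, SE 0.092, limma adjusted p 3.12e-06), with a narrow spread in both groups. Olr59 (-2.10), Gcnt2 (-1.79) and Tmem204 (-1.77) also fell. All of these passed without replicate 3.

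Values of the single knockdowns are set beside these, each against the same 3 negative siRNA libraries. The list medians for Yap siRNA, Wwtr1 siRNA and the double knockdown were -0.39, -0.90 and -1.14 for sterol enzymes. For ATF4 targets they were -0.14, 0.07 and -0.44. For focal adhesion genes they were -0.25, -0.044 and -0.45. For complement they were 0.34, 0.17 and 1.56. Hmgcs1 had log2 fold changes of -0.37, -1.64 and -1.70, and Edn1 of -0.96, -0.83 and -2.41. Col11a1 had -0.09, -0.33 and -1.999. Differences between these effects were not tested here.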

How the data were processed

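Gene counts from 12 libraries were deposited as normalized counts: the authors trimmed reads with Trim Galore 0.6.5, aligned them to rn6 with HISAT2, counted per gene and divided each library by a DESeq2 size factor, so the deposited unit is a signal from which whole reads could be recovered (100% of values within 0.01 of a whole number). Fold-change and p-value columns of the authors' own comparisons were not used. Values were tested as log2(value + 1) with limma 3.58.1 (trend on) over all 12 libraries, after a filter on a mean of at least 10, with Benjamini-Hochberg adjustment. edgeR 4.0.16 and DESeq2 1.42.0 on recovered reads, other scalings, pseudocounts, filters, a macrophage covariate and each library left out were alternatives. The test was tried on simulated data, where 91% of 200 changed genes were recovered and 4.21% of calls were false. Recovery was 82% at a log2 change of 1 and 100% at 2, and smaller changes were not simulated. The simulation held far fewer changed genes than passed here, and no library set apart like double knockdown replicate 3. Its rates may therefore not hold for this comparison. Samples were grouped by their labels.

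The members and lists were chosen with earlier results of these data known, so no list was tested. Genes were named by size of change: in each list up to 2 rises and 2 falls with a mean of at least 100 and no overlap, and, outside the interferon list, 12 of each with a mean of at least 5000 over the 6 libraries and 8 of each in no list with a mean of at least 500. Other list members are named to account for their list, after their values were seen. Some genes that the rule or lists hold are not reported here. Apold1 was counted with the interferon list through its name prefix. Gene overlaps and near-identical copies may share reads, and whether counting used strand is not given in the sources used here. Sequences are from RefSeq, build GRCr8.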

Additional observations from a re-analysis of the deposited data

How the results depend on the processing

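The deviations of same-numbered negative siRNA and double knockdown libraries correlated at -0.075, 0.092 and -0.103. These values cannot decide whether replicate numbers pair the libraries, because double knockdown replicate 3 stood apart. On the first principal component, replicate 3 was lowest within negative siRNA (-53.2), Yap siRNA (-19.6) and Wwtr1 siRNA (-16.4). In the double knockdown it was not (46.8, against 44.9 in replicate 2). A fit with the replicate number as a block gave 4204 genes in all, 4074 outside the interferon list and 235 of these over 4-fold, against 3888, 3758 and 230 without it. With replicate 3 as the lone double knockdown library, assumed to vary like the other groups, 2406 genes passed and 2286 outside the interferon list. Leaving out 1 library at a time gave 2745 to 4054 genes, 2619 to 3925 outside the interferon list and 178 to 244 over 4-fold. With a mean of at least 100 as the filter, 100 genes outside the interferon list passed over 4-fold, because lower genes left the test. Several list medians have no stable sign. Collagen chains changed sign to -0.038 with that filter and to -0.052 without negative siRNA replicate 2 (range -0.052 to 0.37 over left-out libraries), small leucine-rich proteoglycans to -0.032 without double knockdown replicate 3 (range -0.032 to 0.33), and mesothelial and epicardial markers to 0.14 with that filter. Without double knockdown replicate 3 the sign also changed for matricellular genes (0.061 to -0.062), elastic fibre genes (-0.056 to 0.053), growth factor ligands and receptors (0.043 to -0.10), D cyclins and CDK inhibitors (-0.087 to 0.081) and collagen modifying enzymes (0.0036 to -0.062), that of Schwann cell markers changed from -0.17 to 0.27 without double knockdown replicate 1, and that of endoplasmic reticulum chaperones from -0.014 to 0.037 without negative siRNA replicate 3. With replicate 3 as the lone double knockdown library, macrophage markers changed from -0.53 to 0.90, Schwann cell markers from -0.17 to 1.32, elastic fibre genes from -0.056 to 0.14 and the BMP list from 0.11 to -0.017, and 23 of the 44 list medians moved by more than the spread between the double knockdown libraries. The cause was not tested for the sign changes. Of the 159 genes chosen by the naming rule, 134 kept their call in all 12 fits that left out 1 library, 7 lost it without double knockdown replicate 3, 21 without negative siRNA replicate 3 and 33 with replicate 3 as the lone double knockdown library. None of the 159 reversed. Plvap went to 0.68 without double knockdown replicate 3 and Lamb3 to 0.75 without negative siRNA replicate 3. The 3 cultures of each group limit the precision, and low genes carry most counting error.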
